A study of Mus musculus with 6 samples.

Results

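Genes of the enzymes that write and erase marks on chromatin were examined in RNA-Seq counts from cells sorted from the retina after optic nerve crush (ONC). The 52 genes are the DNA methylation enzymes and the histone methyltransferases, demethylases, deacetylases and acetyltransferases outside the Polycomb system, taken from a list of symbols whose rule uses no measured value. All 52 were found among the 55573 genes of the count table, and all 52 had enough counts to be tested. Each class is given below by what its enzymes do.

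The mice were adult C57BL/6J animals, of both sexes per the study's methods. An adeno-associated virus (AAV2) carrying *GFP* (control) or *Ezh2* was injected into the vitreous, the nerve was crushed 2 weeks later, and cells were sorted 3 days after the crush, so every library comes from an injured eye with virus. *Ezh2* encodes the histone methyltransferase of the Polycomb complex PRC2, and the study asked how raising it affects axon regrowth through gene expression. The chromatin enzymes are compared here between its groups. There were 3 libraries per group, and the study left out 1 Ezh2 library, inferred to be Ezh2 replicate 3. Values are therefore given for 5 libraries first and for all 6 beside them. The promoter of the virus and whether animals were pooled are not given in the sources used here. If the replicates do not come from separate animals, the p values measure technical spread only.

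DNA methyltransferases place methyl groups on cytosines next to guanines (CpG sites), which at promoters goes with silencing, and TET enzymes oxidize those groups as a step to their removal. Histone methyltransferases and demethylases set lysine methylation that goes with active promoters and enhancers (H3K4), transcribed gene bodies (H3K36 and H3K79) or silent chromatin (H3K9). Acetyltransferases and deacetylases add and remove acetyl groups, which are found at active promoters and enhancers. In retinal ganglion cells (RGCs), which send their axons through the optic nerve, such enzymes are studied for their part in axon regrowth after injury.

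The 6 libraries held 30569933 to 35971192 counts each, and the lowest count of any of the 52 genes was 88. Levels are given as CPM, counts scaled to the library total. *Ezh2* itself was at 28.8, 34.6 and 33.0 CPM in the GFP libraries and at 78.0, 65.3 and 104.8 CPM in the Ezh2 libraries (order of replicates 1 to 3 here and throughout). Its exons overlap an antisense gene, *Gm26625*. The sort was on CD90.2, the product of *Thy1*, but the RGC-defining *Pou4f1* and *Pou4f2* were at 0 in at least 1 library each, and 12 RGC markers together reached only 140.0 to 173.3 CPM. The 7 Müller glia markers together reached 16000 to 20980 CPM. Immune and vessel markers were also above the RGC sum. The 8 B and plasma cell markers reached 2025 to 3238 CPM, and the 12 T cell markers 511.6 to 1567 CPM. The 6 endothelial and mural markers reached 2061 to 2802 CPM. The values below thus describe a mixture of cell types, immune and vessel cells included, and not RGCs alone. In such bulk samples, fewer cells of a type and less RNA per cell cannot be told apart. Ezh2 replicate 3 stood apart, with correlations of log2 CPM across genes of 0.971 to 0.972 to the other Ezh2 libraries, which correlated with each other at 0.988.

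RefSeq promoters (GRCm38.p6, 250 bases before to 50 after the start of transcription) were found for 40 of the 52 genes, 56 promoters in all. The median promoter of these genes held 28 CpG sites, against 7 over all 32851 promoters of 27025 genes, with a median GC content of 67.3% against 52.7%. The set of all promoters was not limited to genes expressed in these libraries, so the difference does not show a trait particular to these enzymes. The promoters of the 3 genes that passed the test of expression both in 5 and in 6 libraries are shown. *Dnmt1* and *Tet1* encode enzymes that act on CpG sites in general, and RNA counts do not measure methylation of the sites marked here. The study profiled DNA methylation separately by bisulfite sequencing of sorted cells, and those data were not examined here. All are written 5′ to 3′ on the strand of the gene, with CpG sites in capitals.
*Dnmt1*, chr9:20952574-20952873, minus strand: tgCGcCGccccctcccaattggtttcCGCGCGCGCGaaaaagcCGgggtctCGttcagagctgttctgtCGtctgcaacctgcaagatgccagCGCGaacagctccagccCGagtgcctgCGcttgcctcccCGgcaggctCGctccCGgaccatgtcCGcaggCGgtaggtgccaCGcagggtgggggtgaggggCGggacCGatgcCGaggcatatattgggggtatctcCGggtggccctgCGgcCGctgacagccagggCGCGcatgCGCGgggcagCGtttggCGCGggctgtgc
*Tet1*, chr10:62887275-62887574, minus strand: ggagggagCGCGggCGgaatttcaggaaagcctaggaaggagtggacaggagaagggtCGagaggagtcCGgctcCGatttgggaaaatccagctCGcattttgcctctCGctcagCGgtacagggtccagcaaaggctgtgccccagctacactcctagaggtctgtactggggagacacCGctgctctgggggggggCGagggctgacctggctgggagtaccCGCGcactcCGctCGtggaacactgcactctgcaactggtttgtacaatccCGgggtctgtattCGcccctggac
*Kdm5b*, chr1:134559928-134560227, plus strand: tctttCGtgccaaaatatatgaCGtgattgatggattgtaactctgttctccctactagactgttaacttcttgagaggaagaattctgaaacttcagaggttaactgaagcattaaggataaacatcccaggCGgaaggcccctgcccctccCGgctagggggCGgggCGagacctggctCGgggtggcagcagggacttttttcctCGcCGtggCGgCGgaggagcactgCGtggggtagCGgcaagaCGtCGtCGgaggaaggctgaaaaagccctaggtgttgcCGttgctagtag
These windows hold 33, 17 and 17 CpG sites. *Dnmt1* has other RefSeq promoters, and this one holds the most CpG sites of them. The *Dnmt1* and *Tet1* windows lie inside the longer GENCODE gene models, whose coordinates are given below. The letters TTTCCCGC or TTTGGCGC, forms of the site bound by E2F factors, were searched on both strands and were present in 1 of the 56 promoters (1.79%), against 1.56% of all promoters. That match was in the *Dnmt1* window shown, beginning at base 284, where base 251 is the RefSeq start used for this window. The other RefSeq starts of *Dnmt1* lie upstream of it, so for those starts the match lies inside the gene. Their windows, with 12 and 2 CpG sites, held no such match. Which start was used in these cells was not measured. The letters CCAAT, on either strand, were in 32.1% of the promoters of these genes and in 37.4% of all promoters. A match of letters is a description of the sequence, and binding was not measured here.

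The levels of the 52 genes in the control libraries were compared per kilobase of exon, since these genes differ widely in length. Exon length counts every annotated exon of a gene and not single transcripts, so the ranks depend on the annotation. Mean CPM per kb ranged from 0.844 for *Suv39h2* to 28.8 for *Ehmt2*, both H3K9 methyltransferases. Among DNA methylation genes *Dnmt1* was the highest at 17.7 and *Dnmt3b* the lowest at 1.67 CPM per kb, with *Dnmt3a* at 9.65, *Tet3* at 8.91 and *Tet1* at 3.83. Without division by length, the GFP mean of *Dnmt3a* (160.6 CPM) was above that of *Dnmt1* (130.4 CPM). *Kmt2a* (25.9) and *Setd1a* (2.56) were the ends of the H3K4 class, and *Nsd1* (26.6) and *Nsd2* (5.81) those of the H3K36 and H3K79 class. Demethylases ran from *Kdm4a* (28.0) to *Kdm1b* (7.09), and acetyltransferases from *Crebbp* (20.9) to *Kat2a* (8.90). Of the deacetylases, *Hdac7* was the highest (19.4) and *Hdac9* the lowest (2.08). No gene was near the detection floor of 3 counts. Replicates were close: the coefficient of variation over the 3 GFP libraries had a median of 4.03%, from 0.41% for *Kmt2c* to 15.9% for *Uhrf1*.

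**Figure D1:**
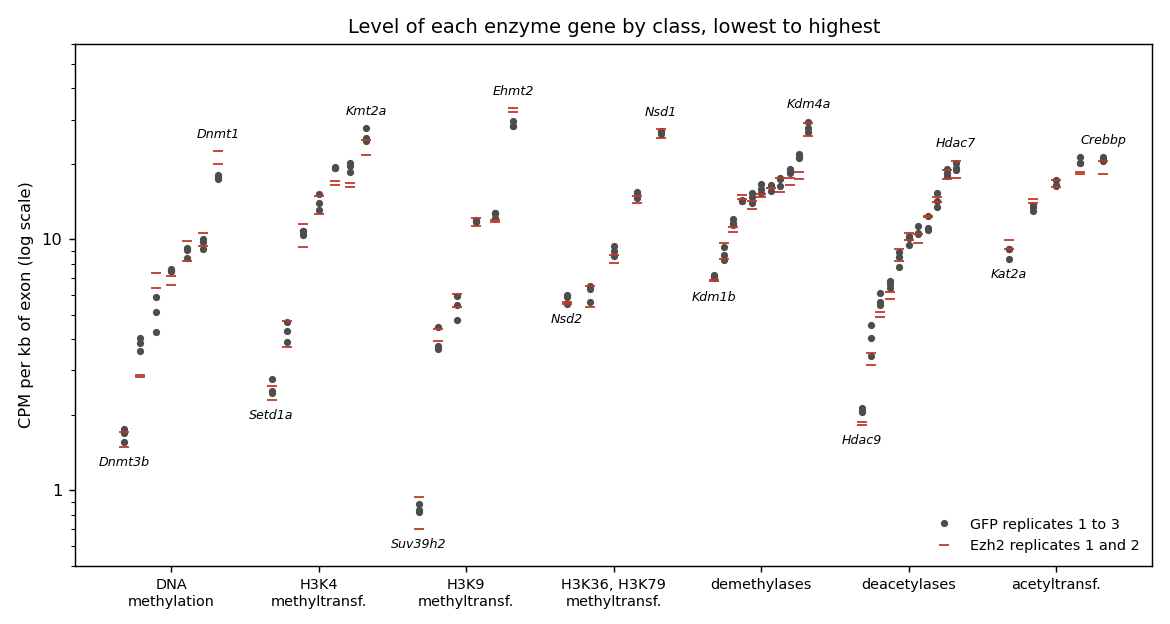
Level of each of the 52 genes in CPM per kb of exon (log axis), by enzyme class and ordered within it by the mean of the GFP libraries. Dots are GFP replicates 1 to 3 and dashes Ezh2 replicates 1 and 2, and the highest and lowest gene of each class are named, with *Ehmt2* at 28.8 and *Suv39h2* at 0.844 as the extremes of the GFP means.

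Few of the chromatin enzyme genes changed with *Ezh2* overexpression, and none by much. In the 5 libraries, 7 of 52 (13.5%) had an adjusted p under 0.05 (edgeR quasi-likelihood F test, Benjamini-Hochberg adjusted over all genes), a share below the 17.8% of all 20241 genes tested. *Dnmt1*, *Uhrf1* and *Ehmt2* rose (3 genes, 5.77%, against 10.1% of all genes), and *Tet1*, *Kmt2c*, *Kmt2e* and *Kdm5b* fell (4 genes, 7.69%, against 7.68%). With all 6 libraries, 3 of 52 (5.77%, against 5.78% of 19732 genes) passed. Of these *Dnmt1* rose (1 gene, 1.92%, against 3.08% of all genes), and *Tet1* and *Kdm5b* fell (2 genes, 3.85%, against 2.7%). The share of these genes past the threshold was therefore near or under that of all genes.

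None of the 52 also changed by more than 1.5-fold, the threshold that the study states for its differentially expressed genes, whereas 3.8% of all genes did in 5 libraries (2.52% higher, 1.28% lower) and 2.52% did in 6 (1.62% higher, 0.902% lower). By edgeR at an unadjusted p under 0.05, 14 of 52 (26.9%) passed in 5 libraries, against 29.3% of all genes, and 8 (15.4%) passed in 6, against 24.5%. DESeq2 and limma-voom on the 5 libraries also put 7 genes under the adjusted threshold and 0 above 1.5-fold. These genes were measured closely, with a median SE of log2 fold change of 0.06, against 0.12 over all genes. For 51 of the 52, the 95% interval of the fold change in 5 libraries lay within 1.5-fold either way, the exception being *Uhrf1* with an upper limit of 1.58-fold. The median log2 fold change was -0.04 in 5 libraries and 0.03 in 6, beside -0.01 and 0.01 over all genes.

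**Figure D2:**
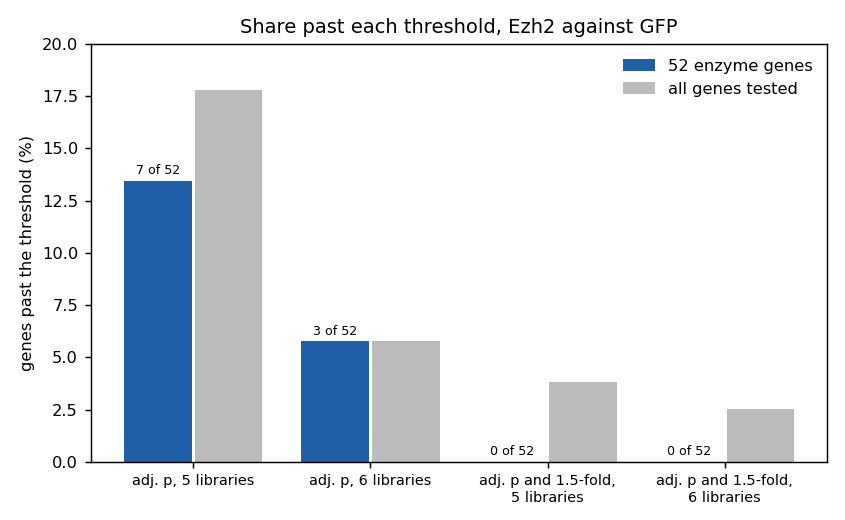
Percent of the 52 chromatin enzyme genes (dark bars) and of all genes tested (light bars) past each threshold in Ezh2 against GFP libraries. At an adjusted p under 0.05 the shares were 13.5% and 17.8% in 5 libraries, and no chromatin enzyme gene passed with the added 1.5-fold threshold.

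**Figure D3:**
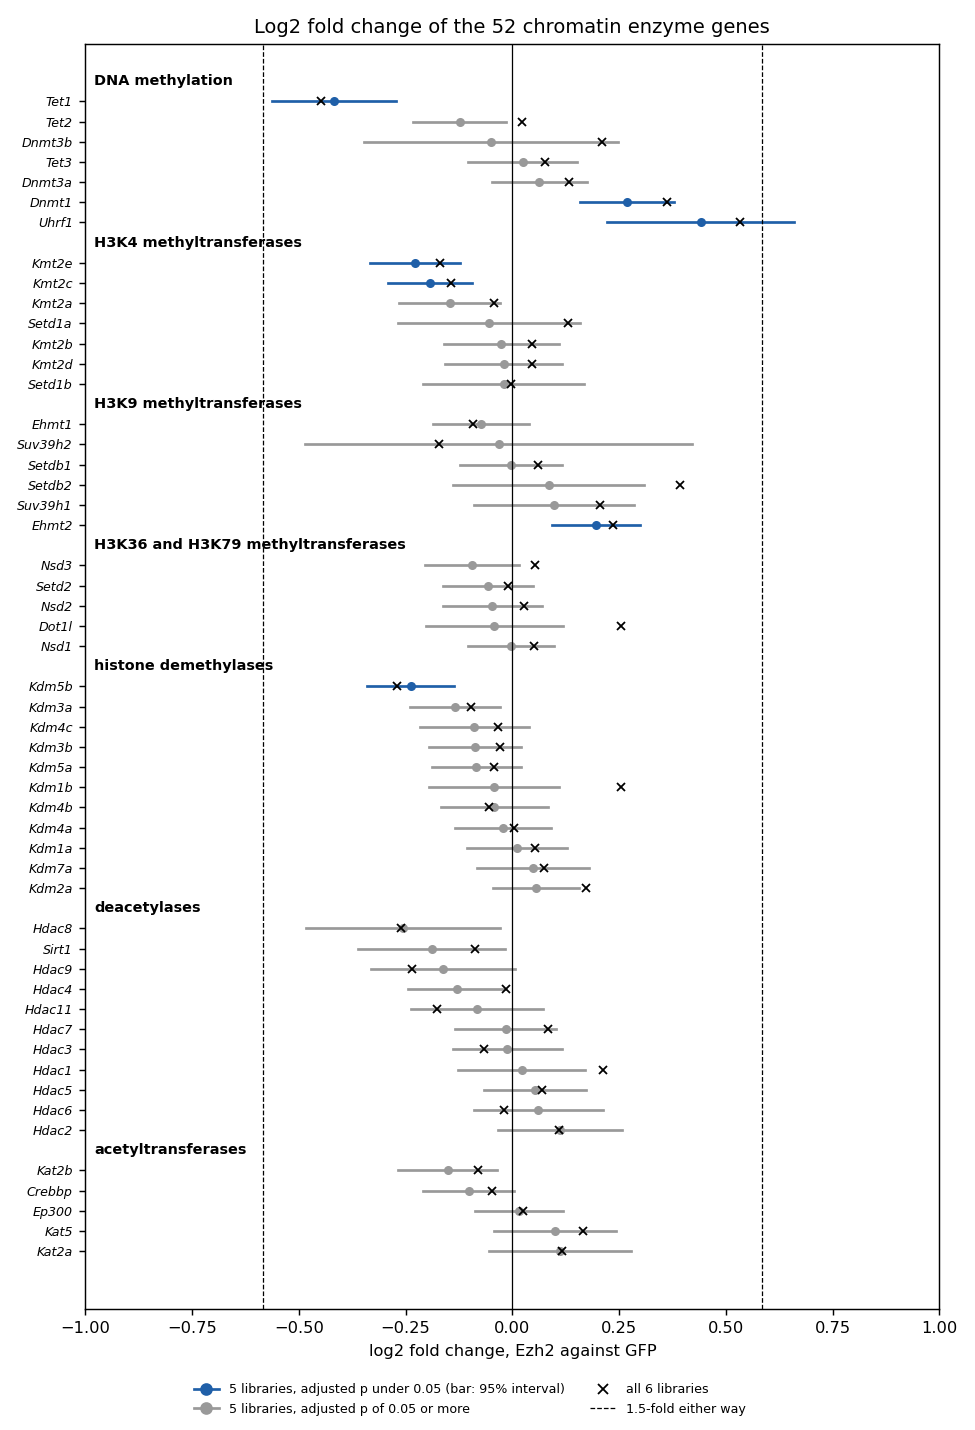
Log2 fold change of each gene, Ezh2 against GFP, by class, with dots and 95% intervals from 5 libraries and crosses from all 6. Dark dots mark the 7 genes with an adjusted p under 0.05 in 5 libraries, and the dashed lines mark 1.5-fold, which only the interval of *Uhrf1* crosses in 5 libraries.

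DNA methylation genes held the largest changes in both directions. Of 7 genes, 2 rose and 1 fell in 5 libraries. *Dnmt1* (ENSMUSG00000004099, chromosome 9, 20907209 to 20959888) encodes the enzyme that copies methylation to the new strand after DNA replication. It was 130.3, 133 and 128 CPM in GFP libraries, and 166, 147 and 176 CPM in Ezh2 libraries. All 3 Ezh2 libraries were above all 3 GFP libraries. The group means were 130.4 ± 2.38 (SD, n = 3) and 156 ± 13.4 CPM (SD, n = 2, Ezh2 replicates 1 and 2). The log2 fold change was 0.27 ± 0.05 (SE, edgeR adjusted p of 0.000465), and with all 6 libraries it was 0.36 ± 0.09, with an edgeR adjusted p of 0.0447.

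*Uhrf1* (ENSMUSG00000001228, chromosome 17, 56303321 to 56323486) encodes the protein that binds hemimethylated DNA and brings DNMT1 to it. Its level was 18.2, 25.02 and 21.9 CPM in the GFP libraries, and 31.2, 27.3 and 32.9 CPM in Ezh2 replicates 1 to 3. The groups did not overlap, though the GFP libraries were spread widely around 21.7 ± 3.44 CPM (SD, n = 3). The log2 fold change of 0.44 ± 0.11 (SE) passed in 5 libraries, with an edgeR adjusted p of 0.0041. It did not pass with all 6, at 0.53 ± 0.14 and an edgeR adjusted p of 0.0575, nor when Ezh2 replicate 1 was left out of the 5 (0.36 ± 0.13, adjusted p of 0.0699).

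*Dnmt1* and *Uhrf1* are known to be higher in dividing cells, and markers of dividing cells moved the same way. Of 14 such markers, 10 passed as higher and 0 as lower in 5 libraries, and 0 passed in 6. Their summed level was 331.0 to 365.6 CPM in GFP libraries, 423.9 to 468.5 CPM in Ezh2 replicates 1 and 2, and 727.6 CPM in Ezh2 replicate 3. The defining *Mki67* was 17.5, 27.3 and 21.4 CPM in the GFP libraries and 30.3, 21.5 and 49.9 CPM in the Ezh2 libraries, and none of the 14 was at 0. T cell markers also moved, with 9 of 12 higher in 5 libraries and sums of 511.6 to 548.5, 640.0 to 683.3 and 1567 CPM in the same order. Several other marker sets were higher as well, some of them only in Ezh2 replicates 1 and 2. All 5 macrophage markers tested were higher in 5 libraries and 4 of 5 in 6, with *Cd163* near 0 in every library, and their sums were 528.1 to 593.0 CPM in GFP libraries, 1855 to 2382 CPM in Ezh2 replicates 1 and 2, and 1607 CPM in replicate 3. Microglia markers had 4 of 7 higher and 1 lower, rod markers 6 of 8 higher and cone markers 6 of 7 higher in 5 libraries, with 0, 0 and 1 higher in 6. In Ezh2 replicate 3 the microglia and cone sums were 1069 and 43.95 CPM, below those of the GFP libraries (1217 to 1354 and 47.89 to 52.7 CPM). RGC markers had 3 of 10 tested higher and 0 lower in 5 libraries, and 2 higher in 6. Their sums were 140.0 to 144.1 CPM in GFP and 158.9 to 173.3 CPM in Ezh2 libraries. Of 4 astrocyte markers 1 was higher in each fit, and of 8 B and plasma cell markers 3 in 5 libraries and 1 in 6. The part of any of these cells in the rise of *Dnmt1* and *Uhrf1* was not tested.

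*Dnmt3a* and *Dnmt3b*, which set new methylation, did not pass. *Dnmt3a* was 153, 163 and 166 CPM in GFP and 176, 157 and 179.7 CPM in Ezh2 libraries, which overlap. *Dnmt3b* was low, at 7.97 to 8.93 CPM in GFP libraries and 8.73, 7.62 and 12.3 CPM in Ezh2 replicates 1 to 3, and its fold change between 0.79 and 1.19 (95% interval, 5 libraries) was less closely set than that of *Dnmt3a*, between 0.97 and 1.13.

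*Tet1* (ENSMUSG00000047146, chromosome 10, 62804570 to 62908996), which encodes a methylcytosine oxidase, fell the most of the 52 genes in both fits. It was 59.9, 55.2 and 62.7 CPM in GFP libraries, against 44.5, 43.6 and 38.9 CPM in Ezh2 libraries. Each Ezh2 library was below each GFP library, and Ezh2 replicate 3 was the lowest. Its log2 fold change was -0.42 ± 0.07 (SE, edgeR adjusted p of 6.37e-05), and -0.45 ± 0.08 with an adjusted p of 0.0172 in all 6. Markers of amacrine cells and Müller glia were among those that fell beside *Tet1* and the other lower genes. Of the amacrine markers tested, 3 of 7 were lower in 5 libraries (*Tfap2b*, *Slc6a9* and *Pax6*) and 2 in 6, with sums of 509.2 to 529.4 CPM in GFP libraries, 441.5 to 449.4 CPM in Ezh2 replicates 1 and 2 and 398.0 CPM in replicate 3. Of 7 Müller glia markers, 5 were lower and 1 (*Apoe*) higher in 5 libraries, and 3 lower and 1 higher in 6, with sums of 20190 to 20570, 19600 to 20980 and 16000 CPM in the same order. Their part in the falls was not tested. The related oxidases *Tet2* and *Tet3* did not pass in either fit. *Tet2* was 126, 128 and 126 CPM in GFP and 121, 110.4 and 144 CPM in Ezh2 libraries. *Tet3* was 141, 154 and 152 CPM in GFP and 164, 136 and 157 CPM in Ezh2 libraries. Relative to *Tet3* in the same library, *Tet1* CPM had a ratio of 0.425, 0.359 and 0.413 in GFP and of 0.27, 0.32 and 0.248 in Ezh2 libraries. Ratios between genes were chosen after values were seen and were not tested.

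**Figure D4:**
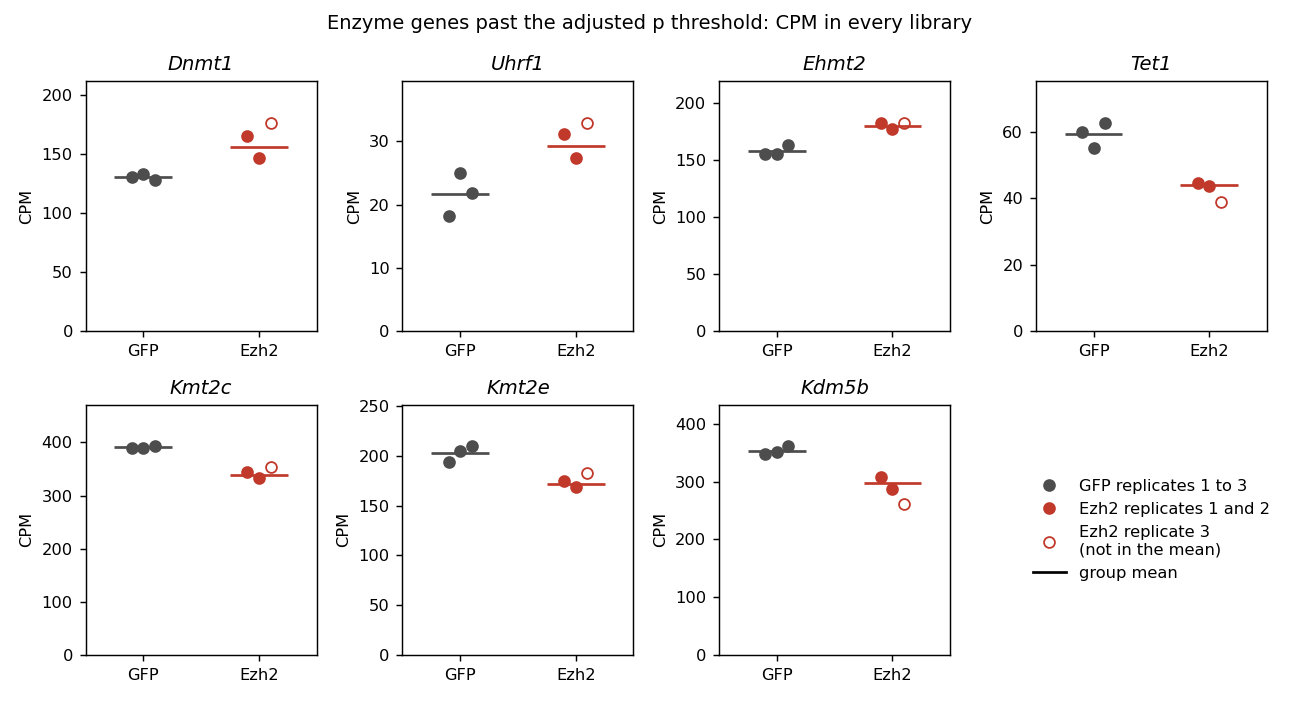
CPM of the 7 genes past the adjusted p threshold in 5 libraries, per library, with GFP replicates 1 to 3 in grey, Ezh2 replicates 1 and 2 filled, Ezh2 replicate 3 open, and lines at the means of the GFP libraries and of Ezh2 replicates 1 and 2. In all 7 panels the groups do not overlap, Ezh2 replicate 3 included, as for *Tet1* at 55.2 CPM or more in GFP and 44.5 CPM or less in Ezh2 libraries.

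The H3K4 methyltransferases held 2 of the 4 genes that fell. *Kmt2c* (ENSMUSG00000038056, chromosome 5, 25271798 to 25498783) encodes an enzyme that marks enhancers with H3K4 monomethylation. It was 389, 390.0 and 393 CPM in GFP libraries, the tightest replicates of all 52 genes, and 345, 334 and 353 CPM in Ezh2 replicates 1 to 3. Its log2 fold change was -0.19 ± 0.05 (SE, edgeR adjusted p of 0.00454), but -0.14 ± 0.06 with an adjusted p of 0.199 in all 6 libraries, although the groups still did not overlap.

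*Kmt2e* (ENSMUSG00000029004, chromosome 5, 23434441 to 23504235) belongs to the same family by sequence, and its protein is thought to lack the methyltransferase activity. Its level was 194, 204 and 209 CPM in GFP and 175, 168 and 182 CPM in Ezh2 libraries. The log2 fold change was -0.23 ± 0.05 (SE, edgeR adjusted p of 0.00167), and -0.17 ± 0.07 with an adjusted p of 0.184 in all 6. Exons of *Kmt2c* overlap the antisense gene *Gm42585* and those of *Kmt2e* overlap *Srpk2*, and whether counting used the strand is not known.

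The other 5 H3K4 methyltransferases did not pass, and their log2 fold changes lay between -0.15 (*Kmt2a*) and -0.02 (*Setd1b* and *Kmt2d*) in 5 libraries. All 7 of the class were thus on the negative side there, with a median of -0.05, but with all 6 libraries 3 were positive and 4 negative, with a median of 0.00. *Kmt2d*, the enhancer enzyme closest to *Kmt2c*, was 261, 278 and 303 CPM in GFP and 297, 252 and 296 CPM in Ezh2 libraries, which overlap widely. *Kmt2a* was 411, 423 and 463 CPM in GFP and 415, 360.3 and 447 CPM in Ezh2 libraries.

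Among 6 H3K9 methyltransferases, *Ehmt2* alone passed. *Ehmt2* (ENSMUSG00000013787, chromosome 17, 34898469 to 34914052) encodes G9a, which forms the H3K9 dimethyl mark in a complex with the product of *Ehmt1*. It was 155, 156 and 163 CPM in GFP and 182, 177 and 183 CPM in Ezh2 libraries, with no overlap. The log2 fold change was 0.20 ± 0.05 (SE, edgeR adjusted p of 0.00529), and 0.23 ± 0.06 with an adjusted p of 0.063 in all 6. *Ehmt1* was 103, 104 and 98.9 CPM in GFP and 95.3, 96.8 and 87.3 CPM in Ezh2 libraries. That lower level did not pass, with a log2 fold change of -0.07 ± 0.06 and an edgeR adjusted p of 0.406. The ratio of *Ehmt2* to *Ehmt1* CPM was 1.51, 1.5 and 1.65 in GFP and 1.91, 1.83 and 2.09 in Ezh2 libraries. *Setdb1*, *Suv39h1*, *Suv39h2* and *Setdb2*, which form the trimethyl mark of heterochromatin or are related to such enzymes, had log2 fold changes between -0.03 and 0.10 in 5 libraries, and none passed in 6. *Suv39h2*, the lowest gene of the 52, was 3.61 to 3.89 CPM in GFP libraries and had a 95% interval of 0.714-fold to 1.34-fold.

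Of the 5 enzymes of H3K36 and H3K79, 0 passed, and 0 had an unadjusted edgeR p under 0.05 in 5 or 6 libraries. They are *Setd2*, which forms the H3K36 trimethyl mark, *Nsd1*, *Nsd2* and *Nsd3*, which form the dimethyl mark, and *Dot1l*, which methylates H3K79. *Nsd1* was 461, 466 and 471 CPM in GFP and 481, 442 and 483 CPM in Ezh2 libraries, and the 95% interval of its fold change was 0.931 to 1.07. The log2 fold changes of all 5 were between -0.09 and 0.00 in 5 libraries and between -0.01 and 0.25 in 6. *Dot1l* moved most between the fits, from -0.04 to 0.25, and was 46.7 and 56.6 CPM in Ezh2 replicates 2 and 1 but 82.0 CPM in Ezh2 replicate 3.

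Of 11 histone demethylases, 1 passed. *Kdm5b* (ENSMUSG00000042207, chromosome 1, 134560171 to 134635285) encodes an enzyme that removes H3K4 di- and trimethylation. It was 348, 351 and 361 CPM in GFP and 308, 287 and 261 CPM in Ezh2 libraries, lowest in replicate 3. The means were 353 ± 6.83 (SD, n = 3) and 298 ± 14.5 CPM (SD, n = 2, Ezh2 replicates 1 and 2). Its log2 fold change was -0.24 ± 0.05 (SE, edgeR adjusted p of 0.000733), and -0.27 ± 0.06 with an adjusted p of 0.0402 in all 6.

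*Kdm5a*, with the same substrate, was 235, 216 and 225 CPM in GFP and 214, 208 and 216 CPM in Ezh2 libraries. It did not pass (adjusted p of 0.289). *Kdm3a*, an H3K9 demethylase, had the next largest change of the class, at -0.13 ± 0.05 on the log2 scale and an edgeR adjusted p of 0.0719, with levels of 151 to 157 CPM in GFP and 135 to 145 CPM in all Ezh2 libraries. The remaining 8, which include *Kdm1a* (LSD1), *Kdm2a* and the *Kdm4* genes, had log2 fold changes between -0.09 and 0.06 in 5 libraries. *Kdm1a* was 80.3 to 85.2 CPM in GFP and 83.2 to 85.3 CPM in Ezh2 libraries, with a fold change between 0.929 and 1.09 (95% interval).

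None of the 11 deacetylases passed in either fit, and 3 had an unadjusted edgeR p under 0.05 in 5 libraries (*Hdac8*, *Hdac4* and *Sirt1*, all lower) and 1 in 6. Class I enzymes, some of which act in nuclear corepressor complexes, lay on both sides of 0 in 5 libraries. *Hdac1* was 46.4, 49.1 and 52.6 CPM in GFP and 48.7, 50.7 and 66.8 CPM in Ezh2 libraries, *Hdac2* had a log2 fold change of 0.11 and *Hdac3* one of -0.01. *Hdac8* had the largest estimate, at -0.26 ± 0.11 (adjusted p of 0.114), and its GFP libraries were spread from 16.7 to 22.1 CPM. Of class IIa, *Hdac9* was 29.9 to 31.0 CPM in GFP libraries and 26.6, 27.4 and 21.7 CPM in Ezh2 libraries, with no overlap, but its log2 fold change of -0.16 ± 0.08 had an adjusted p of 0.188. *Hdac4*, *Hdac5* and *Hdac7* were between -0.13 and 0.05. *Hdac6*, which deacetylates tubulin in the cytoplasm, was 45.2 to 51.5 CPM in GFP and 53.2, 47.6 and 39.7 CPM in Ezh2 libraries. The NAD-dependent *Sirt1* was 29.3 to 32.7 CPM in GFP and 27.4, 26.0 and 30.7 CPM in Ezh2 libraries, so that only Ezh2 replicate 3 was within the GFP range.

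The 5 acetyltransferases did not pass either. *Ep300*, which with *Crebbp* acetylates H3K27, the residue that EZH2 methylates, was 232, 236 and 246 CPM in GFP and 246, 231 and 229 CPM in Ezh2 libraries. Its fold change lay between 0.941 and 1.09 (95% interval, 5 libraries). *Crebbp* was 278, 283 and 288 CPM in GFP and 277, 246 and 274 CPM in Ezh2 libraries, with a log2 fold change of -0.10 ± 0.05 and an edgeR adjusted p of 0.191. *Kat2b* (PCAF) was 97.8 to 103 CPM in GFP and 88.2, 90.2 and 97.0 CPM in Ezh2 libraries, with a log2 fold change of -0.15 ± 0.06 and an adjusted p of 0.0604, while its relative *Kat2a* was at 0.11 ± 0.08.

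The genes that passed as lower all had long exon totals, counted over every annotated exon of the gene and not over single transcripts. The split at 8 kb of exon was chosen after the data were seen. All 4 that passed as lower were among the 27 longer genes, and all 3 that passed as higher were among the 25 shorter ones. The shares of all genes that passed on each side of the split were not counted, so these counts do not set the enzyme genes apart. The median log2 fold change was -0.07 in the longer and -0.01 in the shorter enzyme genes in 5 libraries. Over all protein-coding genes it was -0.07 in 2676 genes over 8 kb and 0.04 in 12331 shorter ones. When the trend on exon length was removed from the fit of 5 libraries, *Kmt2c* moved to -0.05 ± 0.05 (adjusted p of 0.504) and *Kdm5b* to -0.12 ± 0.05 (adjusted p of 0.0641), and neither passed. *Tet1* (-0.31 ± 0.07), *Kmt2e* (-0.17 ± 0.05), *Dnmt1* (0.29 ± 0.05), *Uhrf1* (0.43 ± 0.11) and *Ehmt2* (0.19 ± 0.05) still passed, and *Dnmt3a*, *Kdm2a* and *Kat2b* passed in addition, at 0.18, 0.15 and -0.16. In 6 libraries without the trend, *Dnmt1* and *Tet1* passed.

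Counted by overlap, the CPM values of the groups did not overlap in 20 of the 52 genes (38.5%) in 5 libraries, 5 higher and 15 lower, against 44.9% of all genes (21.5% higher, 23.4% lower). With all 6 libraries it was 15 of 52 (28.8%), 5 higher and 10 lower, against 34.2% of all genes (14.9% higher, 19.3% lower). The Ezh2 libraries also differed among themselves. Ezh2 replicate 1 was above Ezh2 replicate 2 in 45 of 52 genes, beside 53.9% of all genes, and the summed CPM of the 52 was 6369, 6456 and 6634 in GFP and 6463, 5953 and 6574 in Ezh2 libraries. The sum in Ezh2 replicate 2 was thus the lowest of the 6 and the other Ezh2 sums lay within the GFP range. The median log2 fold change of the 52 followed, at -0.11 without Ezh2 replicate 1 and 0.03 without Ezh2 replicate 2.

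Ezh2 replicate 3 was above both other Ezh2 libraries in 30 of the 52 genes and below both in 13, whereas over all genes it was above both in 32.5% and below both in 50.9%. The sign of the log2 fold change differed between the fits of 5 and 6 libraries in 14 of the 52 genes. The share of all genes in which it differed was not counted. Of the 3 genes that passed in both, *Dnmt1* was further from the GFP mean in replicate 3 than in the other Ezh2 libraries, and so were *Tet1* and *Kdm5b*.

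**Figure D5:**
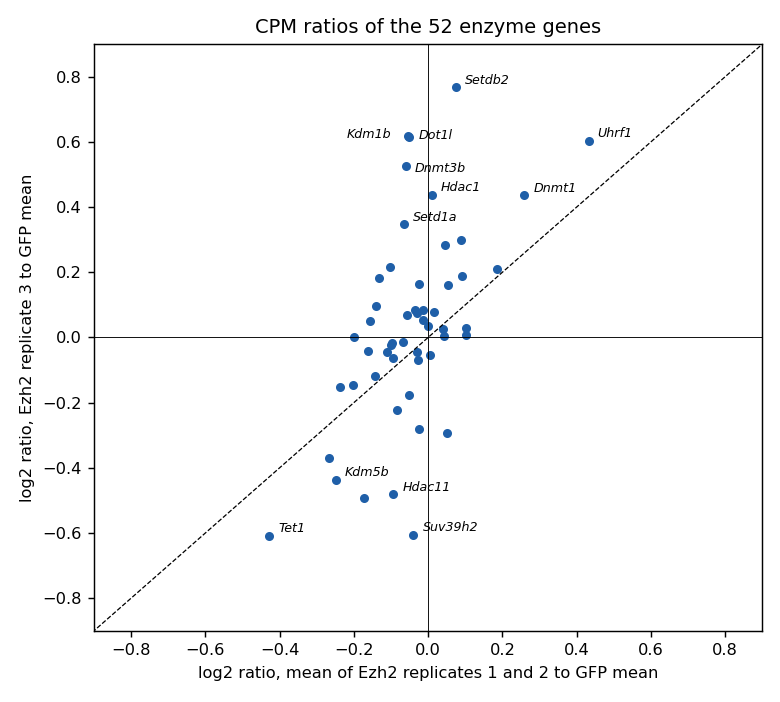
Log2 ratio to the mean of the GFP libraries of the mean CPM of Ezh2 replicates 1 and 2 (horizontal) and of the CPM of Ezh2 replicate 3 (vertical), for the 52 genes, with a dashed line where both are equal. *Dnmt1*, *Uhrf1*, *Tet1* and *Kdm5b* lie away from 0 on the same side on both axes, whereas *Setdb2*, *Kdm1b*, *Dot1l* and *Suv39h2* are near 0 horizontally and far from it vertically.

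Other chromatin genes of the same pathways, 68 in number and 67 of them tested, were compared in the same fits. In 5 libraries 10 of 67 (14.9%, against 17.8% of all genes) passed. Of these 4 were higher (5.97%, against 10.1%) and 6 lower (8.96%, against 7.68%), and 0 changed by more than 1.5-fold (against 3.8%). In 6 libraries 0 passed by edgeR (against 5.78% of all genes), with 13 at an unadjusted p under 0.05 (19.4%, against 24.5%). Among those that passed in 5 libraries, the largest change there was that of *Chd3*, a remodeler of the NuRD deacetylase complex, at 0.33 ± 0.06 on the log2 scale (edgeR adjusted p of 0.000166, and 0.162 in 6 libraries). *Mbd1*, a reader of methylated DNA, changed by 0.25 ± 0.05 (adjusted p of 0.000651, and 0.104), and the acetyltransferase gene *Kat6b* by -0.23 ± 0.05 (adjusted p of 0.00292, and 0.0592). *Chd3* was 134 to 146 CPM in GFP libraries and 191, 161 and 274 CPM in Ezh2 replicates 1 to 3. The 1 gene not tested was *Dnmt3l*, with 0 to 2 counts per library.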

How the data were processed

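Libraries of total RNA were made with a stranded kit, per the labels. The authors deposited 1 table of unnormalized counts of reads, with 6 library columns and Ensembl gene identifiers, and 0 columns of sample values were without a sample. The submitters' processing notes name STAR 2.7.0d and build GRCm38. The counting program, annotation release and strand setting are not given in the sources used here, so genes that overlap an antisense gene (19 of the 52) are uncertain to that extent. Of 55573 identifiers, 55480 matched GENCODE M21, which gave symbols, coordinates and exon lengths.

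The genes and lists were chosen with earlier results of these data known. GFP replicates 1 to 3 and Ezh2 replicates 1 and 2 were compared in edgeR 4.0.16 (R 4.3.3) with filterByExpr, TMM factors and the quasi-likelihood F test with its robust option, two-sided, with Benjamini-Hochberg adjustment over all genes tested, and all 6 libraries in the same way. The robust option was settled after the data were seen. Passed means an adjusted p under 0.05. SE values come from the F statistic, intervals are 95%, and CPM values use library totals. A count of 0 would allow up to 3 counts, 0.0834 to 0.0981 CPM, counting error only. Genes were named with full values if they passed in 5 libraries, with the highest and lowest per kb of each class and the 3 largest changes that passed among other chromatin genes. Other members are given by range or, as chosen after seeing values, singly. Alternatives were DESeq2 1.42.0, limma-voom (limma 3.58.1), other factors and filters, left-out libraries, a replicate block, glmTreat at 1.5-fold, and, added after seeing the data, no robust option and removal of a length trend. In simulated counts for the 5-library comparison over 17822 genes, 188 of 200 genes changed 2-fold were recovered, with 17 false calls. The simulation gave every gene the same dispersion and held no change smaller than 2-fold, so it does not bear on the smaller changes reported here. Same-numbered libraries did not deviate together from their group means (correlations of -0.0045, -0.0199 and -0.0099 across genes). The Ezh2 mean included Ezh2 replicate 3, which stood apart, so this check is weak for the other Ezh2 libraries. The library titles give replicate numbers only, and these were not taken as pairs.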

Additional observations from a re-analysis of the deposited data

Results flagged for a closer look

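Ezh2 replicate 3 was not part of the 5-library comparison, and in it 2 of the 52 genes were more than 1.5-fold above the highest of the other 5 libraries. The share of all genes that were so was not counted, so this count does not set the enzyme genes apart. Over all genes, this library was the highest of the 6 in 24.8% and the lowest in 38.4%. *Setdb2*, related to H3K9 methyltransferases, was 27.2 CPM there, 1.51 times the highest other value of 18.0 CPM. *Kdm1b*, an H3K4 demethylase gene, was 59.7 CPM, 1.52 times the highest other value of 39.4 CPM, and its exons overlap the antisense gene *Dek*. In the other 5 libraries *Kdm1b* lay between 37.3 and 39.4 CPM. Neither gene passed in the fit of 6 libraries by edgeR with Benjamini-Hochberg adjustment (log2 fold changes of 0.39 ± 0.22 and 0.25 ± 0.20, adjusted p of 0.307 and 0.472). In the same library markers of T cells summed to 1567 CPM, against 683.3 CPM or less in the others, and their part in these values was not tested. Groups of 3 libraries were too small for a check of single outlying values.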

How the results depend on the processing

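Over the 5 libraries, DESeq2, limma-voom, other scaling factors, the filters, the robust option and each left-out library gave 7 to 9 genes with an adjusted p under 0.05, and 0 genes past 1.5-fold in any fit of 5 or 6 libraries, glmTreat included. With 1 Ezh2 library left, it was assumed to vary like the GFP group. *Dnmt1*, *Tet1*, *Kmt2e* and *Ehmt2* passed in all 14 settings on 5 libraries. With all 6 libraries 3 genes passed (1 higher, 2 lower), 7 without Ezh2 replicate 3 (3 higher, 4 lower, the 5-library comparison, and the removal that moved the count most), and 0 to 2 without any other library of the 6 (higher 0 to 1, lower 0 to 1). It was 0 without GFP replicate 1, 2 or 3 of the 6, 1 without Ezh2 replicate 1 (*Tet1*) and 2 without Ezh2 replicate 2 (*Dnmt1* and *Tet1*). Without the robust option on 6 libraries it was 2 (0 higher, 2 lower). Under a replicate block, 6 genes passed in 5 libraries, *Kmt2c* being lost (adjusted p of 0.0557), and 1 in 6 (0 higher, 1 lower). Replicate numbers were not taken as pairs, so the block is an alternative only. With the length trend removed, 8 passed in 5 libraries (5 higher, 3 lower) and 2 in 6 (1 higher, 1 lower). The median log2 fold change of the 52 was 0.08 in 6 libraries without the length trend, and in 6 libraries it turned from 0.03 to -0.04 without Ezh2 replicate 3 and was 0.00 to 0.07 without any other library. Of the other chromatin genes, 10 in 5 libraries became 6 with the block (2 lower), 7 without the length trend (2 lower), and 0 in either direction in 6 libraries, whether with every library, without any library other than Ezh2 replicate 3 (10 without that one), with the block, without the robust option and without the length trend. The cause of these shifts was not tested. The gene with the fewest counts, *Suv39h2* (88 or more per library), had an SE of 0.22, against a median of 0.06 over the 52.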
